A study of Homo sapiens with 7 samples.

Results

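The DPP9 to FEM1A loop joins 2 places on the short arm of chromosome 19 and was the ZNF143 loop with the highest count among those listed before, but not after, CTCF depletion. It was described together with all loops around it: loops of the 7 deposited lists on chromosome 19 with at least 1 anchor midpoint from 4.6 to 4.95 Mb (hg19, the build named in the submitters' processing notes). This gave 331 of 135475 loops, of which 50 were in the wild-type ZNF143 list, 14 in the wild-type CTCF list, 12 in the wild-type RAD21 list, 10 each in the CTCF and RAD21 lists of ZNF143-deleted cells, and 144 and 91 in the ZNF143 lists of CTCF-AID cells at 0 h and 24 h of auxin. The region was chosen from the 0 h and 24 h values of ZNF143, so those values are a description and carry no test.

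Loops had been measured by HiChIP, in which neighbouring DNA ends are ligated inside fixed nuclei and an antibody then pulls down the ligated fragments that carry a chosen protein. The 7 libraries came from the uterine adenocarcinoma cell line HEC-1-B and its derivatives: wild-type cells (antibodies against ZNF143, CTCF and RAD21), ZNF143KO cells, which lack ZNF143 (CTCF and RAD21), and CTCF-AID cells with IAA, an auxin, for 0 h or 24 h (ZNF143). In CTCF-AID cells the CTCF protein carries a degron tag and is broken down once auxin is added to cells that express the TIR1 receptor. Each group held 1 library. No difference below therefore has a replicate check, and no p-value is given. Whether each derived line is a single clone is not given in the sources used here, and neither removal could be checked, since no list with the antibody against the removed protein was analysed here.

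ZNF143 is a zinc-finger transcription factor that binds a long sequence element, most often in promoters. CTCF is a zinc-finger protein at which loop extrusion by cohesin is held up, and RAD21 is the cohesin subunit that closes the cohesin ring. DPP9 is a dipeptidyl peptidase that restrains the NLRP1 inflammasome, and FEM1A is a substrate receptor of a cullin-RING ubiquitin ligase.

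The working name of the loop takes a gene from each side. The gene table held here is of another build (RefSeq, GRCh38.p14), so it was used for names and order only and no anchor was assigned to a gene. In that order TNFAIP8L1, MYDGF and DPP9 are followed by FEM1A, TICAM1 (the adaptor of Toll-like receptor 3), PLIN3 (a lipid droplet coat protein), ARRDC5, UHRF1 (a factor in the maintenance of DNA methylation) and KDM4B. Between DPP9 and FEM1A stand 7 genes, none of them protein-coding: DPP9-AS1, LOC105372250, 2 tRNA genes, MIR7-3HG, MIR7-3 (a miR-7 precursor) and LOC124904620. Anchors are named below by their midpoint in Mb in the files' coordinates. The loop's left anchor (4.733 Mb) is called the DPP9-side anchor and its right anchor (4.791 Mb) the FEM1A-side anchor.

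The promoters of FEM1A and DPP9 are shown because the strongest ZNF143 loops of the region fell between the places named after these genes. Both are from RefSeq, GRCh38.p14, from 250 bases before to 50 bases after the annotated start (for DPP9 the first of 5 in the table). They were taken by gene symbol, and their coordinates must not be set against those of the anchors. Capitals mark matches to motifs searched on both strands: 2 parts of the ZNF143 element (a core spelled CCCA, any 2 bases, ATGC, and an upstream part spelled ACTACAA) and the core of the CTCF motif (CCA, any 2 bases, AG, any 2 bases, GGC). None of the matches shown overlap.
FEM1A, chr19:4791484-4791783, plus strand: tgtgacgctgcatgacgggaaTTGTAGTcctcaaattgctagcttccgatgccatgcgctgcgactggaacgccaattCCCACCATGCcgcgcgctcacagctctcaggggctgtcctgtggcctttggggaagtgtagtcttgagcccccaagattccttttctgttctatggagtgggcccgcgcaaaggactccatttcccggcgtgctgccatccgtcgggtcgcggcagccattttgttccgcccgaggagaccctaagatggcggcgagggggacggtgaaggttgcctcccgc
DPP9, chr19:4723793-4724092, minus strand: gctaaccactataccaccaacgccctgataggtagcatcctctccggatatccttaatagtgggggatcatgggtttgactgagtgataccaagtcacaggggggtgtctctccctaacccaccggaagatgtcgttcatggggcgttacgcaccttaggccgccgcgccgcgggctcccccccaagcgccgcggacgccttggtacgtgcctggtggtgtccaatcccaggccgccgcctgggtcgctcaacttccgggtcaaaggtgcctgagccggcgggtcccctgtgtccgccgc

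The FEM1A promoter held 1 match to each ZNF143 part and none to the CTCF core. The core match lay on the plus strand with its first base at -172 from the start, and the ACTACAA match lay on the minus strand with its first base at -229, written there as TTGTAGT. Of 35116 promoters of the same length, 1.73% held the ZNF143 core, 2.77% held ACTACAA, 0.219% held both and 2.41% held the CTCF core. No shared strand or set spacing was required, so the ZNF143 matches are not shown to be parts of a single element. Of the 8 genes of the region that were looked up, 7 were in the table, and FEM1A was the only one of those 7 with a match to any of the 3 motifs in any listed promoter.

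The DPP9 to FEM1A loop joined chromosome 19, 4732259 to 4733582, to 4790697 to 4792456, with 58.7 kb between the anchor midpoints. Its count was 32 in wild-type ZNF143 (95% exact Poisson interval 21.9 to 45.2), 90 in CTCF-AID ZNF143 at 0 h (72.4 to 110.6), and it was not listed at 24 h. It was listed in both CTCF lists as well, with 6 counts in wild-type cells (2.20 to 13.1) and 4 in ZNF143-deleted cells (1.09 to 10.2), and in neither RAD21 list (a RAD21 loop of ZNF143-deleted cells from 4.731 Mb, with 2 counts, counts as a match only with the 5 kb anchor extension used below). The loop thus had higher counts with the ZNF143 antibody than with the CTCF antibody and was unlisted with the RAD21 antibody. Both CTCF counts were above the median count of their lists, which was 2. Lists hold no loop with a count under 2, and since the filters behind the lists are not given in the sources used here, an unlisted loop is not shown to be absent. It may have fewer than 2 counts, an anchor that was not called or a count removed by another filter, so no fold change is given for the loop. The totals of the lists differ, and their depth is unknown. Per 10000 listed counts the loop had 6.48 in wild-type and 6.29 in CTCF-AID cells at 0 h. These intervals cover counting error only, and in the CTCF-AID lists they may be too narrow. Among all loops with a count of 3 or more, 66.0% at 0 h and 68.0% at 24 h had an even count, against 32.1% to 38.2% in the other 5 lists, and how this arose was not tested.

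A neighbouring loop to the same FEM1A-side anchor stayed listed. Its left anchor (4.724 Mb, 4723161 to 4724659) ends 7.6 kb before the DPP9-side anchor, and its span was 67.6 kb. Its ZNF143 count was 62 in wild-type cells (47.5 to 79.5), 79 at 0 h (62.5 to 98.5) and 97 at 24 h (78.7 to 118.3). It was in none of the 4 CTCF and RAD21 lists, and neither was any other loop of the 4.724 Mb anchor, whose summed count in the ZNF143 lists was 64, 109 and 120. At 0 h the intervals of the 2 neighbouring loops overlapped, whereas in wild-type cells the loop of the 4.724 Mb anchor had the higher count and the intervals did not overlap. The call of the DPP9 to FEM1A loop as missing depends on keeping these anchors apart: with an anchor extension of 10 kb instead of 5 kb it was matched at 24 h by this neighbour, with a count of 97.

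**Figure D1:**
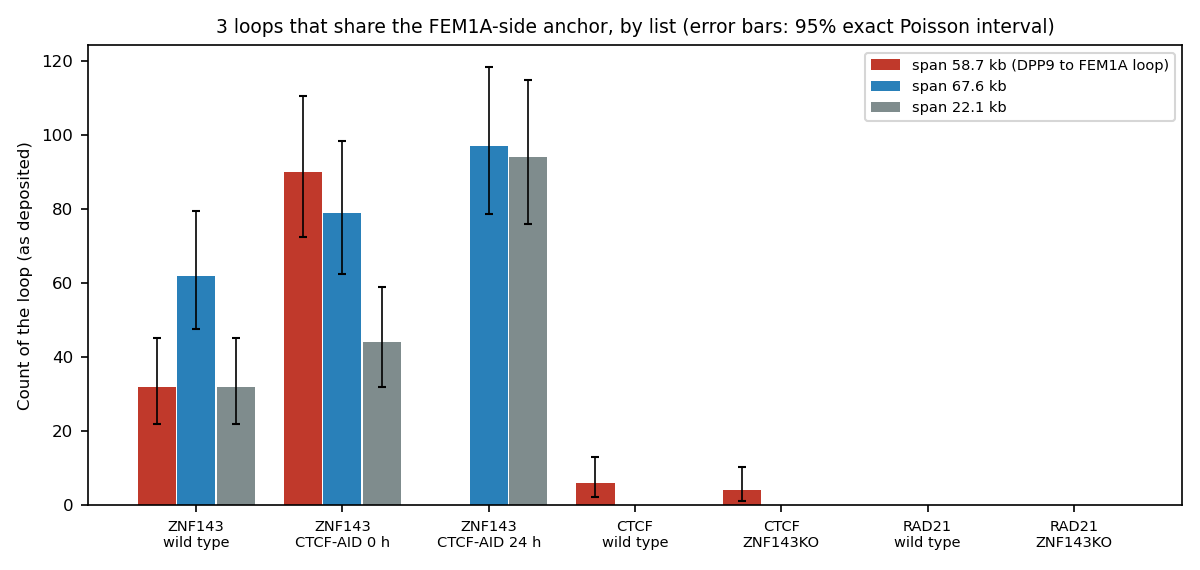
Counts as deposited (y axis) of 3 loops that share the FEM1A-side anchor in each of the 7 lists (x axis, 1 library each), with bars for the count and whiskers for the 95% exact Poisson interval. The loop spanning 58.7 kb has 32, 90 and no listed count in the 3 ZNF143 lists, while the loop spanning 67.6 kb has 62, 79 and 97, and the one spanning 22.1 kb has 32, 44 and 94.

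The DPP9-side anchor had few other loops. It took part in 2 wild-type ZNF143 loops (summed count 34) and 4 loops at 0 h (summed count 99). Beside the loop to the FEM1A side these were a loop to 4.769 Mb with counts of 2 in wild-type cells and 3 at 0 h, and at 0 h loops to 5.681 Mb (count 2) and 6.565 Mb (count 4). No loop of the 24 h list used this anchor. In the CTCF lists its only loop was the one to the FEM1A side. Among the 398 ZNF143 anchors with a summed count of 90 or more at 0 h, 23 (5.78%) overlapped no anchor at 24 h, and the DPP9-side anchor is 1 of them by the way it was chosen. Of the 145 such anchors at a wild-type CTCF anchor 17 (11.7%) were not listed at 24 h, and of the 253 others 6 (2.37%).

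The FEM1A-side anchor, by contrast, joined many partners in the ZNF143 lists. It had 40 of the 50 wild-type ZNF143 loops of the region (80.0%, 95% exact binomial interval 66.3 to 89.97), 68 of 144 at 0 h (47.2%, 38.9 to 55.7) and 46 of 91 at 24 h (50.5%, 39.9 to 61.2). Its summed ZNF143 count was 300 (267.0 to 335.9), 648 (599.1 to 699.9) and 571 (525.1 to 619.8), which was 90.9%, 76.8% and 82.4% of the counts of the region. By number of loops it ranked 11 of 9711 anchors in wild-type cells, 5 of 21128 at 0 h and 23 of 9324 at 24 h, where the median anchor had 1, 2 and 2 loops. These ranks are a description, also in wild-type cells, whose loops overlap those of the 0 h list that chose the region.

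With the other antibodies the FEM1A-side anchor had few loops, though more than the median anchor (1 loop) in each list that held it. By number of loops it ranked 4672 of 16948 anchors with wild-type CTCF. In ZNF143-deleted cells it ranked 1926 of 15905 with CTCF and 2052 of 12620 with RAD21. It had 2 wild-type CTCF loops (summed count 8), 3 CTCF loops in ZNF143-deleted cells (summed count 9), no wild-type RAD21 loop and 2 RAD21 loops in ZNF143-deleted cells (summed count 4). Per 10000 listed counts it had 0.991 and 1.95 in the CTCF lists, against 60.8, 45.3 and 55.5 in the ZNF143 lists. The CTCF partners were the DPP9-side anchor and 5.031 Mb (count 2) in wild-type cells, and in ZNF143-deleted cells the DPP9-side anchor, 4.678 Mb (count 3) and 4.731 Mb (count 2). The RAD21 partners in ZNF143-deleted cells were 4.731 Mb and 4.852 Mb, with a count of 2 each.

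**Figure D2:**
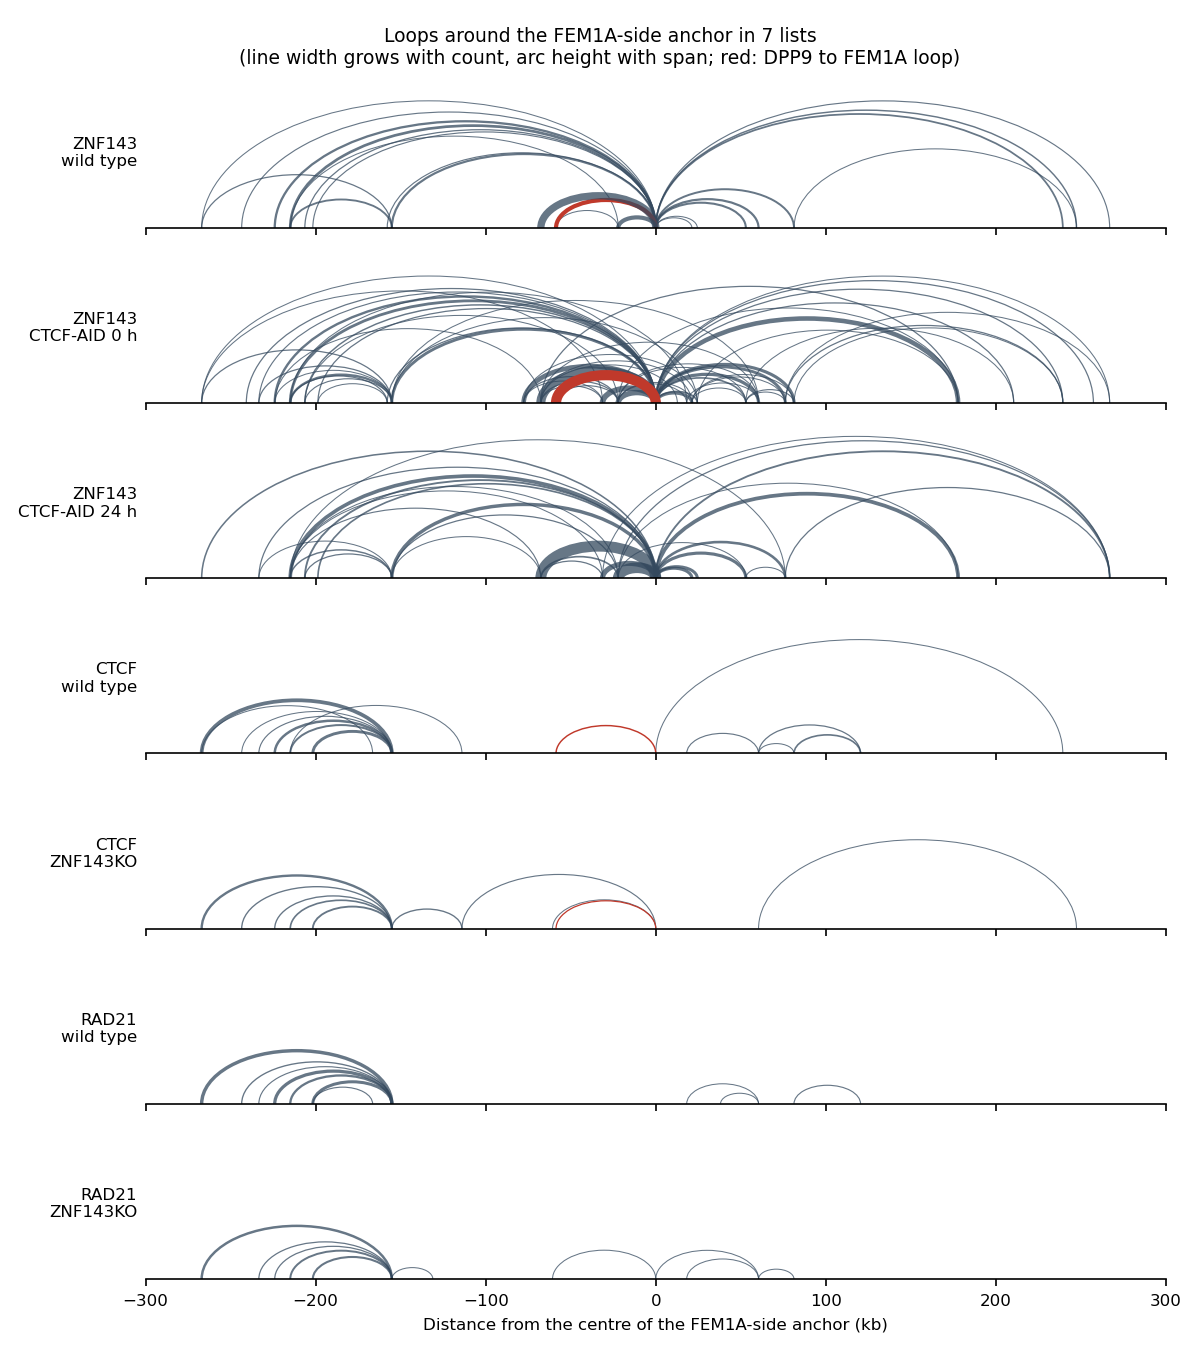
Loops of the 7 lists around the FEM1A-side anchor, drawn as arcs between anchor midpoints (x axis: distance from the centre of that anchor in kb; line width grows with the count and arc height with the span). In the 3 ZNF143 lists the thickest arcs end at 0 kb, with the DPP9 to FEM1A loop in red at 0 h and in wild-type cells and none at 24 h, whereas the strong CTCF and RAD21 arcs end about 155.2 kb to the left.

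The partners of the FEM1A-side anchor lay on both sides. In wild-type cells 22 were to the left and 18 to the right, with summed counts of 212 and 88. At 0 h there were 32 and 36, with summed counts of 416 and 232, and at 24 h 26 and 20, with 399 and 172. The left side thus carried more counts in each ZNF143 list. The median span was 375.3 kb in wild-type cells, 552.6 kb at 0 h and 552.6 kb at 24 h, against 144.5, 235.6 and 299.6 kb over all loops of the same lists. The longest reached 1840, 1973 and 1970 kb.

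Of the 92 partners seen in any ZNF143 list, 20 were in all 3 (anchors counted as the same when they overlapped by at least 1 bp, with no extension). Of the 40 wild-type partners 29 (72.5%) were found at 0 h, where they were 42.6% of the 68 partners, and 11 were not, where 47.3% of all wild-type loops were not found by this rule. The 10 wild-type partners with a count of 10 or more were all listed at 0 h, where 7.18% of all such wild-type loops were not found with a 5 kb extension. Of the 14 partners with a count of 10 or more at 0 h, 5 were not in the wild-type list (22.1% of all such loops were not found there), and 4 of these had 20 counts or more: 4.714 Mb (count 37), 4.760 Mb (46), 4.868 Mb (20) and 4.969 Mb (36). These were 4 of the 11 partners with 20 counts or more at 0 h, where 10.1% of all such loops were not found in wild-type cells without extension. With a 5 kb extension 3 of the 11 were not found, against 7.01% of all such loops.

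The summed count of the FEM1A-side anchor at 24 h was 0.881 of that at 0 h as deposited, and with the 0 h counts scaled to the 24 h listed total the ratio was 1.22, so its direction depends on the scale. Of the 68 partners at 0 h, 31 (45.6%) were listed at 24 h, where they were 67.4% of 46, and 37 were not, where 79.7% of all 0 h loops were not found by the same rule. The shared partners had summed counts of 368 at 0 h and 531 at 24 h, those listed only at 0 h had 280, and those only at 24 h had 40. Of the shared partners 21 had a higher count at 24 h, 5 a lower and 5 the same, with a median ratio of 1.50. Over all 8185 loops shared by these lists without extension, 46.2% were higher at 24 h and the median ratio was 1.00. All 46 partners and their counts at 24 h come from the contrast that chose the region, so nothing is read from these shares.

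Among the 14 partners with a count of 10 or more at 0 h, 6 were not listed at 24 h, where 32.3% of all such ZNF143 loops were not found by the same rule. They were the DPP9-side anchor (90 counts at 0 h), 4.714 Mb (37), 4.852 Mb (23), 4.873 Mb (22), 4.567 Mb (15) and 5.805 Mb (10), in sum 197 counts. These calls depend on keeping close anchors apart: with a 5 kb extension 5 of the 14 were not found at 24 h, and with 10 kb 1 of 14 (5.805 Mb), against 26.4% and 22.2% of all such loops. At 10 kb the loop from 4.724 Mb (97 counts) matches the DPP9-side anchor and 4.714 Mb, that from 4.844 Mb (22) matches 4.852 Mb and that from 4.577 Mb (27) matches 4.567 Mb, while that from 4.868 Mb (17) matches 4.873 Mb already at 5 kb. The other 8 had summed counts of 286 at 0 h and 351 at 24 h, and 4 were higher at 24 h, 3 lower and 1 the same. The largest of these increases was at 4.769 Mb, with 32 counts in wild-type cells, 44 at 0 h (31.97 to 59.1) and 94 at 24 h (75.96 to 115.0), and it was singled out by this difference. The 4.760 Mb partner had 46 and 41 counts, 4.969 Mb 36 and 28, 4.868 Mb 20 and 17, 4.813 Mb 22 and 22, 4.636 Mb 20 and 25, and 4.577 Mb 19 and 27.

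The strong partners were split by whether they overlapped a wild-type CTCF loop anchor. Of the 7 strong partners at one, 5 were not listed at 24 h (the DPP9-side anchor, 4.852, 4.873, 4.567 and 5.805 Mb) and 2 were (4.577 and 4.636 Mb). Of the 7 others 1 was not listed (4.714 Mb). The DPP9-side anchor is 1 of the 5 by the way it was chosen. With a 5 kb extension 4.873 Mb was found at 24 h. With 10 kb each unlisted partner except 5.805 Mb was found, so the split depends on keeping close anchors apart. Over all ZNF143 loops with a count of 10 or more at 0 h, 43.3% of the 418 with both anchors at wild-type CTCF anchors, 34.7% of the 824 with 1 such anchor and 22.5% of the 667 with none were not found at 24 h. The FEM1A-side anchor itself is a wild-type CTCF anchor, so its loops belong to the former 2 classes. CTCF anchors were taken from wild-type cells, not from the CTCF-AID line.

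**Figure D3:**
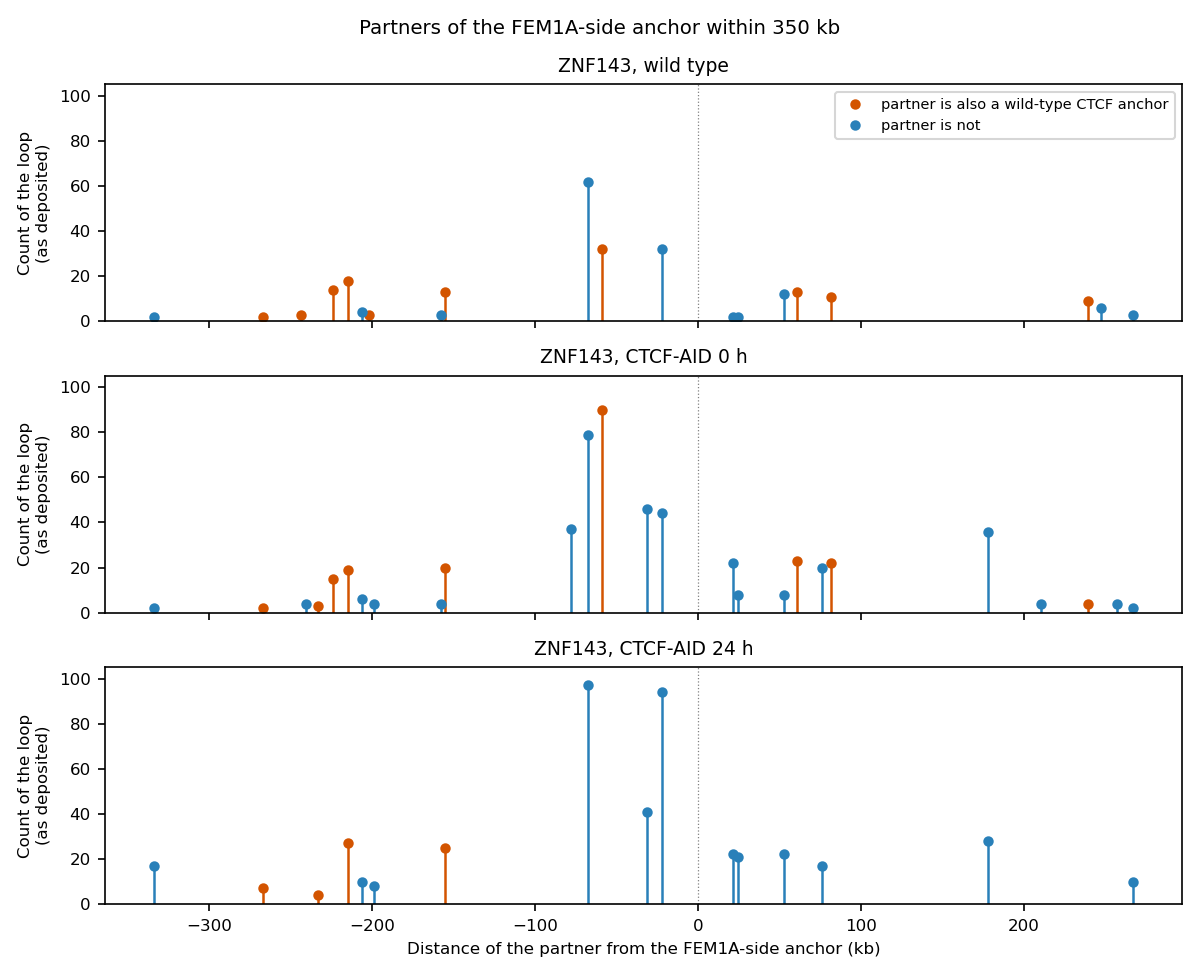
Count as deposited (y axis) of each loop of the FEM1A-side anchor against the distance of its partner in kb (x axis, near partners only) in the 3 ZNF143 lists. Orange marks partners that are also wild-type CTCF anchors; the orange partner 58.7 kb to the left has 32, 90 and no listed count, and the blue partner 67.6 kb to the left has 62, 79 and 97.

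Some partners had low counts at 0 h and higher ones at 24 h, and the following 7 were picked after their values were seen. To the left, the loop to 4.458 Mb had 2 counts at 0 h and 17 at 24 h, that to 4.065 Mb 4 and 16, that to 4.328 Mb 2 and 9 and that to 4.343 Mb 2 and 8. On the right the loop to 5.058 Mb had 2 and 10, to 4.816 Mb 8 and 21, and to 4.844 Mb 8 and 22. In wild-type cells these 7 loops had counts of 2, 3, 2, 4, 3, 2 and 12, in the same order. None of the 15 partners at 24 h with a count of 10 or more was absent at 0 h, where 7.35% of all such 24 h loops were not found with a 5 kb extension.

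Taking the ZNF143 anchors in the window at 0 h, 7 of 16 overlapped no anchor at 24 h, where 61.6% of all 0 h anchors did so. They were 4.634, 4.714, 4.733, 4.804, 4.810, 4.852 and 4.873 Mb, with summed counts at 0 h of 12, 55, 99, 4, 6, 35 and 31. Of the 6 anchors at a wild-type CTCF anchor 4 were not listed at 24 h (65.6% of all such anchors), and of the 10 others 3 (59% of all). With the 5 kb extension 4 of the 16 had no 24 h anchor (57.5% of all), 2 of them among the 6 at CTCF anchors (60.6% of all such anchors), and with 10 kb none of the 16 (53% of all). Among anchors with a summed count of 30 or more the numbers without extension were 3 of 5 at CTCF anchors (25.7% of all such anchors) and 1 of 6 elsewhere (11.9%). The DPP9-side anchor (4.733 Mb), whose loop was chosen for being missing at 24 h, is among these 3 and among the 4 and 7 above. Of the 5 anchors at a wild-type RAD21 anchor 4 were not listed at 24 h without extension (65.7% of all such anchors), 4.636 Mb being the exception, and 2 with 5 kb (60.8% of all such anchors).

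**Figure D4:**
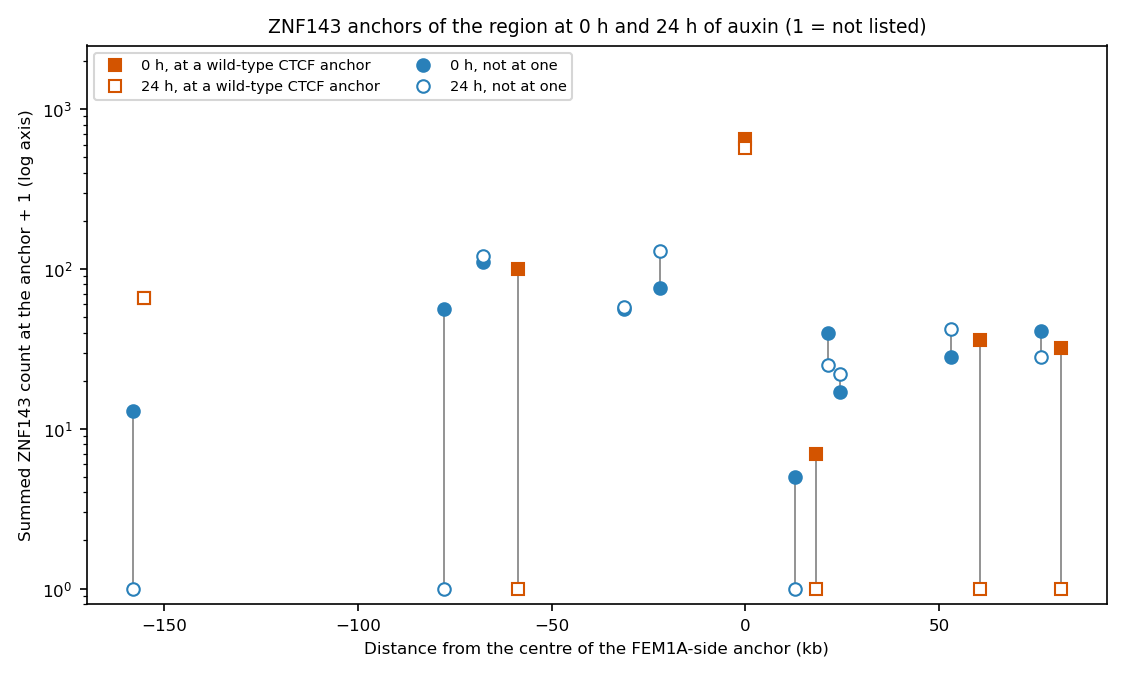
Summed ZNF143 count + 1 on a log axis (y axis) of each anchor in the window against its distance from the FEM1A-side anchor in kb (x axis), at 0 h (filled) and 24 h (open). A value of 1 means not listed; 7 of the 16 anchors at 0 h drop to it, 4 of them at wild-type CTCF anchors (squares), and the anchor 155.2 kb to the left has 65 at both times.

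Over the whole region there were 144 ZNF143 loops at 0 h and 91 at 24 h, a ratio of 0.632 (0.481 to 0.827), with summed counts of 844 and 693 (ratio 0.821). On chromosome 19 the ratio of loop numbers was 0.739 (0.714 to 0.764) and over all chromosomes 0.510 (0.501 to 0.518), with ratios of the summed counts of 1.02 and 0.719. Loops of the region with a count of 10 or more numbered 15 at each time. By matching with a 5 kb extension, 90 of the 144 loops were not found at 24 h (62.5%, against 75.3% of all loops and 57.7% on chromosome 19), 5 of the 15 with a count of 10 or more (33.3%, against 26.4%), and 3 of the 11 with 20 or more (27.3%, against 16.9%). The share found, 37.5%, was 60.4% (32 of 53) once 0 h loops with a scaled count under 2 were left out. Of the 91 loops at 24 h, 42 were not found at 0 h (46.2%, against 54.6% of all), and 0 of the 15 with a count of 10 or more (against 7.35%). Multiplying the 0 h counts by the ratio of the listed totals turned the ratio of summed counts to 1.14. Leaving out the 0 h loops with a scaled count under 2 as well gave 1.46, and this filter, applied to the 0 h list alone, turned the ratio of loop numbers to 1.72.

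Wild-type cells and CTCF-AID cells before auxin, both with ZNF143 and CTCF present by label and both profiled with the ZNF143 antibody, were compared in both directions. Of the 50 wild-type ZNF143 loops 12 were not found at 0 h (24.0%, against 40.4% of all wild-type loops), so 76.0% were found (61.8 to 86.9). All 11 loops with a count of 10 or more were found, where 7.18% of all such wild-type loops were not. The share found depends on the low counts of the 0 h list: it was 52.0% when 0 h loops with a count under 2 after division by 2 were left out, and 34.0% when those with a count under 2 after scaling to the wild-type total were left out. In the other direction, 103 of the 144 loops at 0 h were not found in wild-type cells (71.5%, against 80.6% of all), 4 of the 15 with a count of 10 or more (26.7%, against 16.6%) and 3 of the 11 with 20 or more (27.3%, against 7.01%). The 0 h list helped to choose the region through its high count, so these shares are not independent of the choice. The ratio of loop numbers, 0 h over wild-type, was 2.88 (2.07 to 4.06), against 3.37 over all chromosomes (3.30 to 3.44), and the files of these libraries differ in layout too. With the CTCF-AID counts divided by 2 and loops of at least 2 kept, there were 44 loops at 0 h and the ratio was 0.88 (0.573 to 1.35), so its direction depends on the count scale. This cut drops loops from the 0 h list alone. With a minimum count of 4 as deposited in both lists the ratio was 2.75 (1.52 to 5.22). At 24 h 20 of the 50 wild-type loops were not found (40.0%, against 58.8% of all).

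The CTCF and RAD21 loops of the region had another centre. Their strongest loops joined the 4.636 Mb anchor (4635468 to 4637090), 155.2 kb to the left of the FEM1A-side anchor, to a series of anchors further left. The loop from 4.524 Mb had 28 counts for CTCF and 25 for RAD21 in wild-type cells and 15 and 16 in ZNF143-deleted cells. For the loop from 4.567 Mb the counts were 16 and 23, then 5 and 4, for that from 4.577 Mb 11 and 14, then 8 and 11, and for that from 4.590 Mb 20 and 21, then 10 and 12. These were the 4 pairs of anchors listed in all 4 CTCF and RAD21 lists. The summed count of the 4.636 Mb anchor was 80 for CTCF and 93 for RAD21 in wild-type cells and 48 and 49 in ZNF143-deleted cells, while the totals of all listed counts had ratios of 0.573 and 0.450.

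ZNF143 loops of the 4.636 Mb anchor partly used the same pairs. The loop from 4.577 Mb was the only pair of the region listed in all 7 lists, with ZNF143 counts of 10 in wild-type cells, 15 at 0 h and 6 at 24 h. The loop from 4.524 Mb had ZNF143 counts of 4 and 4 and was not listed at 24 h. The loop from 4.590 Mb was in no ZNF143 list. The same anchor joined the FEM1A-side anchor in all 3 ZNF143 lists, with counts of 13, 20 and 25, and in no CTCF or RAD21 list. Its summed ZNF143 count was 31 in wild-type cells, 65 at 0 h and 65 at 24 h.

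Of the 218 distinct anchor pairs of the region 194 were listed only with ZNF143 and 24 in at least 1 CTCF or RAD21 list, and 8 pairs were in both kinds of list. Over the whole series 55.8% of distinct pairs were listed only with ZNF143. The ZNF143 lists gave 285 of the 331 loops of the region, and the number of pairs listed only there moves with that. Of the 50 wild-type ZNF143 loops 4 were found among wild-type CTCF loops (8.00%, 2.22 to 19.2, against 19% of all wild-type ZNF143 loops). These were the DPP9 to FEM1A loop, the loops from 4.577 and 4.524 Mb to 4.636 Mb, and that from 4.791 to 5.031 Mb (9 ZNF143 and 2 CTCF counts). Among RAD21 loops 2 were found (4.00%, 0.488 to 13.7, against 16.3%), namely the loops from 4.577 and 4.524 Mb. On chromosome 19 the shares were 10.5% for CTCF and 7.96% for RAD21, and both lie within the intervals of the region. Most of these 50 loops share the FEM1A-side anchor, so these intervals are too narrow. Of the 14 wild-type CTCF loops 8 were found among wild-type RAD21 loops (57.1%, against 46.4% of all).

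In ZNF143-deleted cells the named loop kept its place in the CTCF list. Of the 14 wild-type CTCF loops of the region 8 were not found (57.1%, against 60.9% of all), and 6 were: 5 loops of the 4.636 Mb anchor and the DPP9 to FEM1A loop. Of the 12 wild-type RAD21 loops 6 were not found (50.0%, against 65.9% of all), and the 6 found were 5 loops of the 4.636 Mb anchor and the loop from 4.810 to 4.852 Mb (2 and 2 counts). Both shares found, 42.9% (17.7 to 71.1) and 50.0% (21.1 to 78.9), had intervals that included the shares over all loops. Leaving out low counts moved them: with a minimum count of 4 in both lists they were 71.4% (5 of 7) and 80.0% (4 of 5). To the right of the FEM1A-side anchor, the wild-type CTCF loops from 4.873 Mb (count 8) and 4.852 Mb (count 4) to 4.912 Mb were not listed in ZNF143-deleted cells, and that from 4.873 Mb had 3 counts for RAD21 in wild-type cells only. The CTCF loop from 4.636 to 4.678 Mb (count 5) was listed in ZNF143-deleted cells only. In all, 3 of the 10 CTCF loops (30.0%, against 52.9% of all) and 4 of the 10 RAD21 loops (40.0%, against 49.1%) of ZNF143-deleted cells were not found in wild-type cells. The files of the deleted and the wild-type CTCF and RAD21 libraries differ in layout, so the deletion and any difference in how the lists were made cannot be told apart.

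The loops most like the DPP9 to FEM1A loop were sought among the 556 ZNF143 loops with a count of 20 or more at 0 h, by the Euclidean distance of log2(count + 1) over the 7 lists. Counts were those of the loop matched with the 5 kb extension, or 0 where none matched, so the DPP9 to FEM1A loop entered with 2 in the RAD21 list of ZNF143-deleted cells. The nearest, at a distance of 2.25, joined chromosome 17, 73745560 to 73747145, to 73779486 to 73781987, with ZNF143 counts of 20, 34 and none and CTCF counts of 4 and 4. The next joined chromosome 17, 7590167 to 7592450, to 7620019 to 7621516 (distance 2.56), with ZNF143 counts of 32, 35 and none and counts of 3, 3, 3 and 2 in the CTCF and RAD21 lists. The third joined chromosome 19, 49147305 to 49150694, to 49176617 to 49179767 (distance 2.72), with ZNF143 counts of 21, 26 and none and CTCF counts of 2 and 4. The order depends on the matching: without extension the loop of chromosome 19 was the nearest (distance 2.22), that from 7590167 on chromosome 17 was the third (3.01), and the other was not among the nearest 3. All 3 were unlisted at 24 h and had lower counts at 0 h than the DPP9 to FEM1A loop. Nothing is read from these traits. The distance used the 24 h count, which favours loops unlisted at 24 h. The DPP9 to FEM1A loop was chosen for the highest 0 h count among loops not found at 24 h, so any other such loop is lower. Among all 0 h loops not found at 24 h, the next highest count after its 90 was 68, on chromosome 8.

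At the limits of the window, the last anchor outside on the left (4.593 Mb) had summed ZNF143 counts of 11 at 0 h and 12 at 24 h and none in wild-type cells, and the nearest inside (4.625 Mb) had 2 counts for CTCF and 3 for RAD21 in wild-type cells. On the right the nearest inside (4.912 Mb) had 12 for CTCF and 3 for RAD21, and the nearest outside (4.969 Mb) had ZNF143 counts of 58 and 44.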

How the data were processed

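Each library had 1 loop list. The authors deposited, per loop, 2 anchors and a whole-number count of 2 or more with no scaling to a common depth (unit taken from the values). HiC-Pro and hg19 are named in the submitters' processing notes. The loop caller, filters and pooling are not given in the sources used here. Listed totals ran from 33460 to 143119 and are not the depth, which is unknown.

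Start positions are given counted from 1. Lists were matched loop by loop: the anchors of the loop looked for were extended by 5 kb on both sides, those of the other list were not, and the loop counted as found if both then overlapped the corresponding anchors of 1 listed loop by at least 1 bp. Partners were compared by anchors merged over the 7 lists where they overlapped, without extension. Shares carry 95% exact binomial intervals, counts exact Poisson intervals and ratios of numbers the exact binomial split; all cover counting error only, since PCR copies and shared anchors are not independent. Matching was tested on simulated loops (Python 3.11.15, numpy 2.4.6, pandas 2.3.3, scipy 1.17.1).

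The region, the genes, the alternatives and the naming rule (the loop itself, the loops of its anchors, and the 2 strongest loops per list, since 25 pairs reached a count of 10) were chosen with earlier results of these data known. Other loops were named after their values were seen. Of 8 genes 7 matched the RefSeq promoter table by symbol.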

Additional observations from a re-analysis of the deposited data

How the results depend on the processing

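The 9 results were recomputed under other settings. Of the 52 values obtained, 31 differed from the reported ones by less than the counting interval, 18 by more, and 3 turned the direction. The cause was not tested unless one is given. Scaling the list with the higher total and dropping its loops with a scaled count under 2 turned 24 h over 0 h to 1.72 for loop numbers, 1.46 for summed counts and 1.36 for the FEM1A-side anchor (reported 0.881), and, through the dropped loops, gave shares found of 60.4% (0 h at 24 h, reported 37.5%), 71.4% (CTCF), 80.0% (RAD21) and 34.0% (wild-type ZNF143 at 0 h). A minimum count of 4 gave 0.841 for loop numbers, 0.913 for summed counts and shares of 50.0%, 71.4%, 80.0% and 87.5%, in the same order. Dividing the CTCF-AID counts by 2 is the same filter for 24 h over 0 h, so it adds nothing there (5 of the 52 values repeat, among them 0.841, 0.913 and 50.0%), and it gave 52.0% of wild-type ZNF143 loops found at 0 h. With both midpoints in the window loop numbers had a ratio of 0.412, and 100% of wild-type ZNF143 loops were found at 0 h. A 10 kb extension gave 51.4% found at 24 h and 0.577 in place of 0 for the DPP9-side anchor, which then takes in its neighbour. That 0 stands for an anchor unlisted at 24 h and is not a measured fold change. Of 8 further values, under settings chosen after seeing the data, 3 turned the direction: scaling without dropping loops gave 1.14 for summed counts and 1.22 for the FEM1A-side anchor, and dividing the CTCF-AID counts by 2 gave 0.88 for 0 h over wild-type loop numbers (reported 2.88). The last drops loops from the 0 h list alone, and a minimum count of 4 as deposited in both lists gave 2.75. A 5 kb extension left 4 of the 16 window anchors unlisted at 24 h in place of 7 and 5 of the 14 strong partners in place of 6; a 10 kb extension left 0 and 1. No paired analysis was possible because each group had 1 library.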

Other observations

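Anchors with many loops were compared with the FEM1A-side anchor. At 0 h 24 ZNF143 anchors had 50 loops or more, 21 of them on chromosome 19, and all 24 were listed at 24 h. The ratio of their summed counts at 24 h to 0 h ran from 0.788 to 1.68 with a median of 1.33, and the FEM1A-side anchor, at 0.881, was 1 of 3 below 1 in counts as deposited. With the 0 h counts scaled to the 24 h listed total none was below 1: the ratios ran from 1.09 to 2.33 with a median of 1.84, and the FEM1A-side anchor had 1.22.

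Of the 94 ZNF143 loops with a count of 20 or more at 0 h that were not found at 24 h, 89 had exactly 1 anchor at a 24 h anchor within 5 kb and 5 had both. The DPP9 to FEM1A loop was among the 89. With an extension of 10 kb 18 of the 94 (19.1%) were found at 24 h, and the DPP9 to FEM1A loop was 1 of these 18.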
